A study of Mus musculus with 12 samples.

Results

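The oxygen-sensing core of the hypoxia-inducible factor (HIF) pathway was examined in mouse mesenchymal stem cells (MSCs) through 10 genes, listed by their role from the 21851 protein-coding genes of the GENCODE M21 annotation on the mm10 mouse genome. Hif1a, Epas1 and Hif3a encode the alpha subunits of HIF, and Arnt and Arnt2 encode beta subunits. Egln1, Egln2 and Egln3 encode the prolyl hydroxylases, Hif1an encodes the asparaginyl hydroxylase known as factor inhibiting HIF, and Vhl encodes the part of a ubiquitin ligase that binds the hydroxylated alpha subunit. For each gene, all called peaks in the gene body and in 20000 bp on each side were read. These windows held 32 distinct peak intervals in 0.878 Mb, and none of the intervals ran past the edge of its window.

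HIF is a pair of one alpha and one beta subunit that binds DNA at short elements with the core letters ACGTG or GCGTG. When oxygen is present, the prolyl hydroxylases use it to modify the alpha subunit, the product of Vhl binds the modified protein and the protein is degraded, while the product of Hif1an blocks the recruitment of coactivators. When oxygen is scarce, the alpha subunit persists and HIF switches on genes of glycolysis, angiogenesis and erythropoiesis, Egln3 among its well-known targets. Bone marrow is a tissue of low oxygen, and the control of the alpha subunits acts largely on the protein, which histone marks do not measure.

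The cells came from the bones of wild-type male C57BL/6N mice of 3-5 months of age, with no transgene, and were sorted as CD45-/Ter-119-/Sca-1+/CD140a+ cells, a gate that removes blood cells. The labels place the sort on day 12 of culture. After the sort, the cells were kept at 2% oxygen (hypoxia) or at 21% oxygen (normoxia). Before it, all cells had been grown in hypoxia, so the normoxia cells were at the higher oxygen level only after the sort. Chromatin immunoprecipitation with sequencing (ChIP-seq) was carried out for histone H3 acetylated at lysine 27 (H3K27ac), a mark of active promoters and enhancers, and for histone H3 trimethylated at lysine 4 (H3K4me3), a promoter mark. Both marks and the input chromatin had 2 libraries at each oxygen level, 12 in all, and both libraries of a mark and oxygen level went into a single list of peaks. Neither read counts nor values per library are part of the 4 lists, so sequencing depth and the spread between replicates are unknown, no difference below has a replicate check, and none was tested.

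Each peak carries a score from the authors, without a unit. It ran from 50 to 160, or was 1000, and a higher value was read as a more certain call, since no definition of it was given in the sources used here. The share of H3K27ac peaks at 1000 ranged from 0 to 42.2% between chromosomes in the hypoxia list and from 0 to 38.1% in the normoxia list, and that of H3K4me3 peaks from 0 to 86.9% in both lists. Scores on different chromosomes are therefore not on a common scale. The comparison of oxygen levels rests on the score of the same interval in both lists, and a rank or share over all chromosomes is given below only to describe where a value lies in its list. H3K4me3 scores were equal in both lists at all 14600 shared peaks and carried no information on oxygen.

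The H3K27ac lists held 15203 peaks in hypoxia and 14832 in normoxia, and the H3K4me3 lists held 14606 and 14603. Of 8 mesenchymal stromal marker genes, 7 had H3K4me3 and 7 had H3K27ac at a transcription start, the exceptions being Ly6a for H3K4me3 and Eng for H3K27ac. None of 8 blood cell markers had H3K27ac at a start, and 4 endothelial markers had neither mark. Of all protein-coding genes, 58.9% had H3K4me3 and 36.9% had H3K27ac at a start at both oxygen levels. The marker genes were also chosen with earlier results of these data known. Hypoxia-only H3K27ac peaks lay in the windows of the stromal markers Cxcl12 (score 52) and Thy1 (score 55) and in that of the blood marker Cd79a (score 57), the last at the start of its neighbour Arhgef1. A hypoxia-only H3K27ac peak lay in the window of 4.68% of all protein-coding genes.

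The marks at the starts of the 10 genes were compared first. A gene was counted when a peak lay within 1000 bp of any of its annotated protein-coding starts at both oxygen levels. H3K4me3 was present at 9 of the 10 genes (95% Wilson interval 59.6 to 98.2%), all but Hif3a, beside 58.9% of all protein-coding genes. H3K27ac was present at 5 of the 10 (23.7 to 76.3%), namely Hif1a, Arnt, Egln1, Egln2 and Vhl, beside 36.9% of all genes. Epas1, Arnt2, Egln3 and Hif1an, 4 of the 10 (16.8 to 68.7%), had H3K4me3 without H3K27ac at a start, beside 22.4% of all genes. Hif3a alone had neither mark (1 of 10, 1.79 to 40.4%), beside 39.9% of all genes. Among the 12873 genes with H3K4me3 at a start, 60.8% had H3K27ac there too, and 5 of the 9 members with H3K4me3 did. All background shares lay inside the intervals of the members except that of H3K4me3, which lay just below the lower bound. The intervals cover counting error only, and the genes were listed by hand with earlier results of these data known. No start of the 10 genes gained or lost either mark between the oxygen levels. The share of all genes with such a change was not counted. Over the whole lists, 0.041% of the hypoxia and 0.021% of the normoxia H3K4me3 peaks had no counterpart at the other oxygen level. A change in that mark was thus hardly possible for any set of genes. For H3K27ac the shares were 3.87% and 1.47%.

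**Figure D1:**
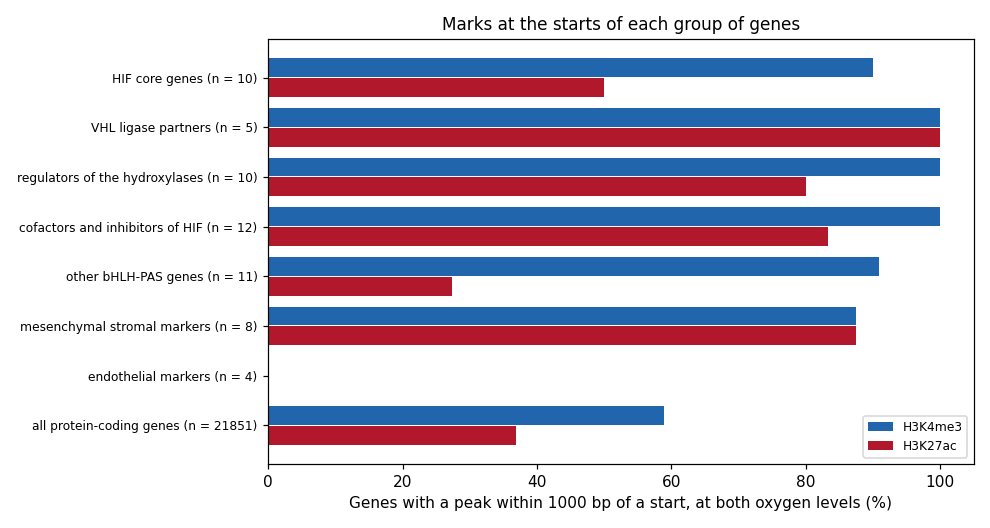
Horizontal bars give the percentage of genes in each group with an H3K4me3 peak (blue) or an H3K27ac peak (red) within 1000 bp of a start at both oxygen levels, with the number of genes in each group beside its name. The HIF core genes stand at 9 of 10 for H3K4me3 and 5 of 10 for H3K27ac, beside the 58.9% and 36.9% of all protein-coding genes. The other bHLH-PAS genes combine 10 of 11 with 3 of 11. The blood cell markers are not shown.

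Within the windows, H3K27ac was called in 24 intervals, of which 22 were in the hypoxia list and 24 in the normoxia list. Of these, 7 lay at a start of one of the 10 genes, 7 only at the start of a neighbouring gene, and 10 at no protein-coding start. H3K4me3 was called in 20 intervals, all in both lists, with 10 at a start of a member, 9 only at the start of a neighbour and 1 at no start. The covered length was 98.5 kb of H3K27ac in hypoxia and 110.5 kb in normoxia, 11.2% and 12.6% of the window bases. For H3K4me3 it was 58.5 kb at both oxygen levels. Epas1, Egln3 and Hif1an, 3 of the 10 (10.8 to 60.3%), had no H3K27ac peak anywhere in the window, as did 44.9% of all genes.

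**Figure D2:**
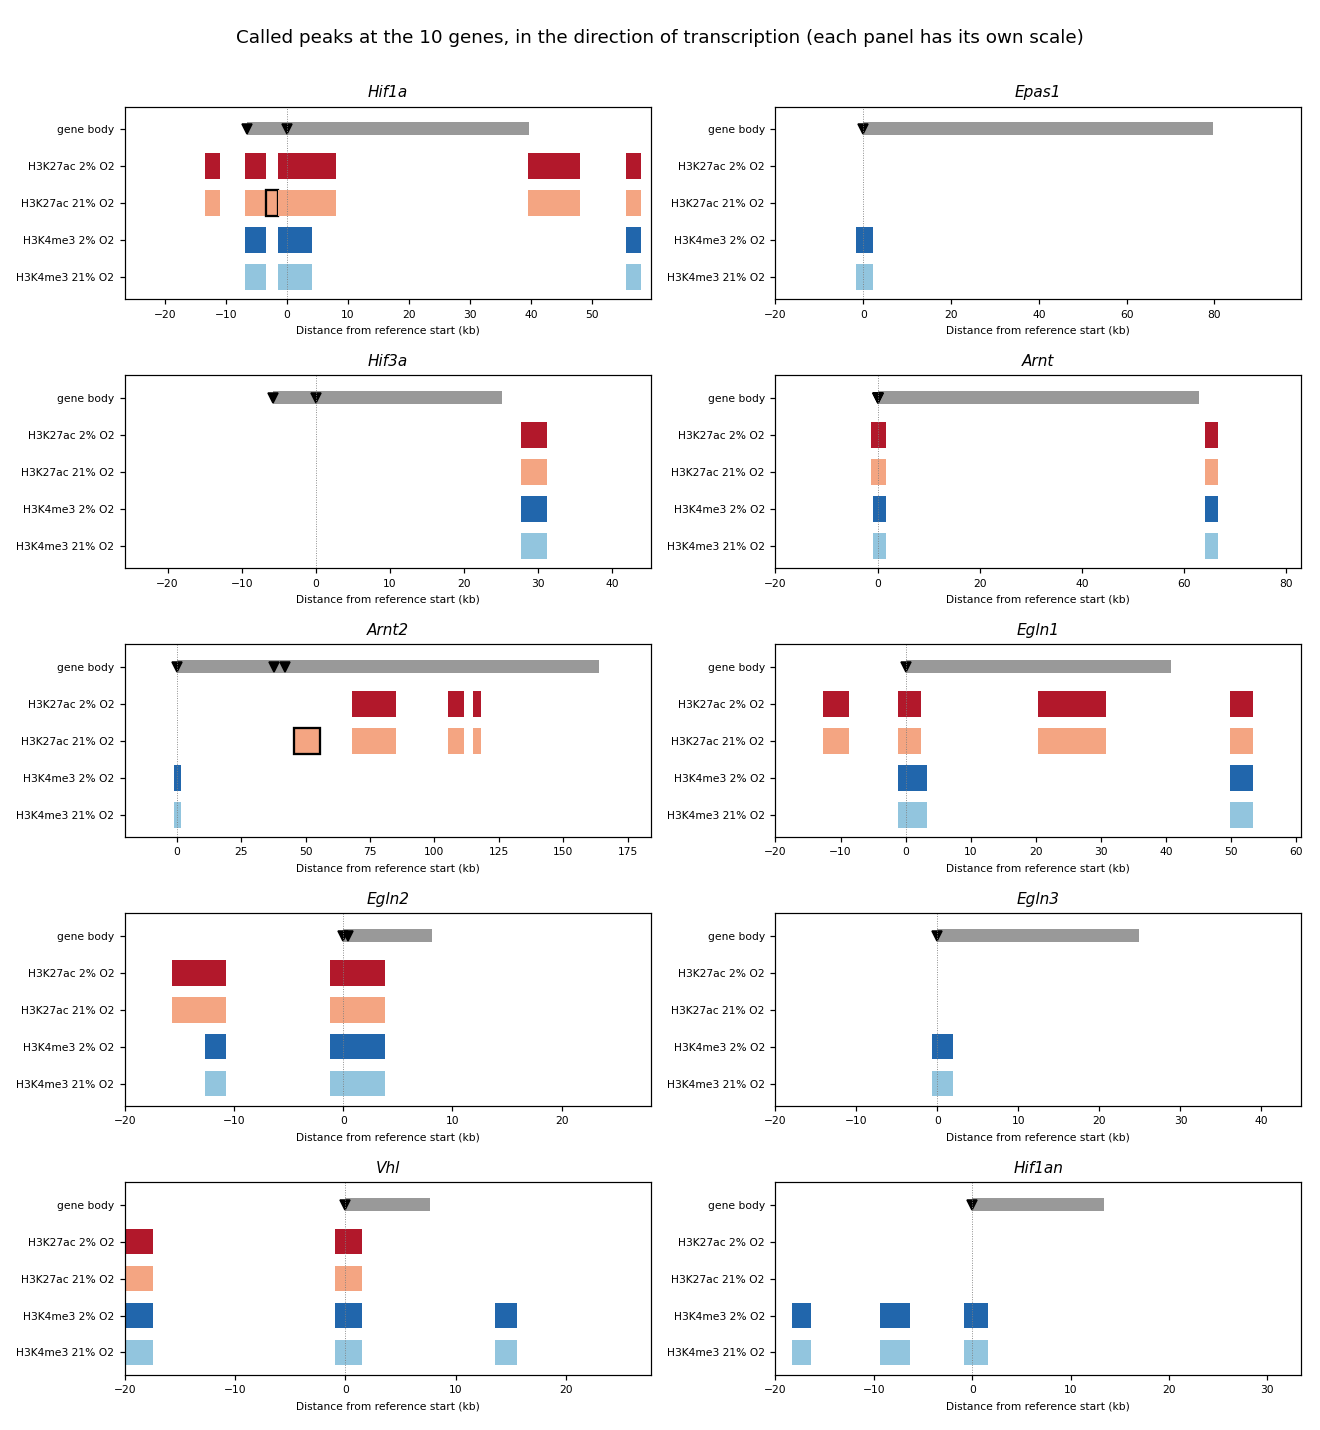
Each panel shows the gene body of 1 gene (grey, with triangles at its annotated starts) and the peaks of the 4 lists (2% and 21% oxygen) against the distance in kb from the reference start, in the direction of transcription. The 2 outlined boxes, between the starts of Hif1a and within the body of Arnt2, are the H3K27ac intervals called in normoxia only, and Epas1, Egln3 and Hif1an show no H3K27ac.

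Hif1a, the alpha subunit found in most cell types, had the largest number of H3K27ac intervals of the 10 genes. It lies on the plus strand at chr12:73901375-73947530 and has 2 annotated starts, the reference start at 73907904 and another at an offset of -6529 bp from it. Both starts carried both marks. The promoter of the reference transcript is shown because both marks covered it at both oxygen levels and because a call that differed between oxygen levels lay next to it. Here and in the promoters that follow, RefSeq sequence of the GRCm38.p6 build is given 5′ to 3′ on the strand of the gene, up to 250 bases before the RefSeq start and shortened where these ran into an exon, and capitals mark the letters ACGTG or GCGTG, or their reverse complements, on either strand.
Hif1a promoter, chr12:73907617-73907866: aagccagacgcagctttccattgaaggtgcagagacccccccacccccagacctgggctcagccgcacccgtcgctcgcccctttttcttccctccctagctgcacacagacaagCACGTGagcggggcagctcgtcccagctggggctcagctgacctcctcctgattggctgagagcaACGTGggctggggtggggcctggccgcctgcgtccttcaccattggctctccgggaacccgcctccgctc

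The run held 3 matches of ACGTG, at 135, 134 and 70 bases before the RefSeq start, the first pair of them overlapping on opposite strands in the palindrome CACGTG. Of 32841 promoters in the RefSeq table, 38.6% held at least 1 core and 6.58% held at least 3. ACGTG was found in 16.6% of promoters and GCGTG in 28.2%. The table matched 9 of the 10 genes, with Epas1 not matched, and 6 of the 9 held a core in the window, while these letters were not in the windows of Arnt2, Vhl and Hif1an. A match is a description of the letters and does not show binding.

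The H3K27ac calls around both starts were set side by side. The interval at the reference start, chr12:73906501-73912000, scored 143 in both lists, and its H3K4me3 peak of 5500 bp was wider than most, at the percentile of 96.6 among H3K4me3 peaks. The interval at the upstream start, chr12:73901001-73904500, scored 85 in hypoxia and 103 in normoxia. H3K4me3 scored 125 at the reference start and 56 at the upstream start in both lists. Between them, chr12:73904501-73906500 was called for H3K27ac in normoxia only, with a score of 90. It lay in an intron of the longer transcript, ended 1404 bp before the reference start and carried no H3K4me3.

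This normoxia-only interval closed the gap between the peaks of both starts. In normoxia, H3K27ac was called without a break over 15000 bp, chr12:73901001-73916000, and in hypoxia over 13000 bp of the same stretch. Of the 218 normoxia-only H3K27ac intervals in the genome, 10 (4.59%) touched shared peaks on both sides, and of the 589 hypoxia-only intervals 27 (4.58%) did. Over all chromosomes, 8 of the 218 normoxia-only intervals had a higher score, and their median was 56. A stretch of the interval is shown because it is the part of the gene whose call differed with oxygen, with the capitals marking the single core it held.
Hif1a normoxia-only interval, plus strand, chr12:73905175-73905474: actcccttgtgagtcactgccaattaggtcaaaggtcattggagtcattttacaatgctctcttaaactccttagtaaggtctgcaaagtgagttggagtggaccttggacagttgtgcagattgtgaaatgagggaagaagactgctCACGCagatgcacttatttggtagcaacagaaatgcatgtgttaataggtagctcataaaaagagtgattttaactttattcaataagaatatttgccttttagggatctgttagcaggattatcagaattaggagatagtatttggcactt

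The whole interval of 2000 bp held 1 core, or 0.5 per kb, and a GC content of 36.8%. The median of all 15421 H3K27ac intervals of either list was 1.6 cores per kb with 48.6% GC, and that of the normoxia-only intervals was 1 core per kb with 43.8% GC.

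The remaining H3K27ac intervals of the Hif1a window scored the same or higher in normoxia. The interval upstream of the gene, chr12:73894501-73897000, scored 54 in hypoxia and 59 in normoxia, and the intronic interval chr12:73912001-73916000 scored 69 and 73. At the 3′ end of the gene, chr12:73947501-73956000 scored 55 and 69. Of this interval, 30 bp lay in Hif1a and 8470 bp outside it, and its nearest start was that of Snapc1, at 8526 bp. The peak at the start of the neighbour Snapc1, which encodes a subunit of the snRNA-activating protein complex, scored 105 in both lists. Thus 4 of the 6 shared intervals scored higher in normoxia and none scored lower. A score higher in normoxia by at least 18, as at the upstream start, was found at 3.53% of the 11015 shared H3K27ac peaks that were below 1000 in both lists, and one higher by at least 14, as at the 3′ end, at 4.89%. For the smaller differences of 5 and 4, at the intervals upstream of the gene and in its intron, the shares were 10.9% and 12.1%.

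Epas1 encodes the alpha subunit known from endothelium and from the kidney cells that make erythropoietin. It lies on the plus strand at chr17:86753700-86833410, and its window held a single peak of any kind. This was the H3K4me3 peak at the start, chr17:86752001-86756000, with a score of 137 in both lists and a width of 4000 bp at the percentile of 89.4. No H3K27ac was called over the gene or its flanks at either oxygen level.

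Hif3a encodes an alpha subunit whose splice forms include inhibitors of the other subunits. The gene occupies chr7:17031507-17062427 on the minus strand with starts at 17062427 and 17056679, the latter being the reference start. Neither start had a peak of either mark at either oxygen level. The single interval in the window, chr7:17025501-17029000, belonged to the start of the neighbouring phosphatase gene Ppp5c, with an H3K27ac score of 78 in both lists. The promoter of the upstream start is shown as the one of the 10 genes without a mark at its start.
Hif3a promoter, chr7:17062428-17062677: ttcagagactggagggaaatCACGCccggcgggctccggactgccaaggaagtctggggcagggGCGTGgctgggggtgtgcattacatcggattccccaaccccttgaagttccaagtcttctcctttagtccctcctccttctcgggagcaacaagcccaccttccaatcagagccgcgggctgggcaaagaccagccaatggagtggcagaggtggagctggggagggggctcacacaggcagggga

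It held 2 cores, both GCGTG, of which the first is printed as its reverse complement, and 16.7% of all promoters held at least 2. The letters of the HIF core were thus present in a promoter with no called mark.

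Arnt encodes the beta subunit that also partners the aryl hydrocarbon receptor. Its position is chr3:95434388-95497240 on the plus strand, with 4 starts within a short distance of each other. The interval over these starts, chr3:95433501-95436000, had both marks with scores of 1000 for each mark and oxygen level. The touching interval upstream of it, chr3:95433001-95433500, was called for H3K27ac alone and scored 100 in hypoxia and 97 in normoxia. Beyond the 3′ end, the start of Ctsk, the gene of the osteoclast protease cathepsin K, carried both marks with H3K27ac scores of 120 and 107. No part of the body of Arnt away from its starts had a peak.

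Arnt2, the beta subunit best known from the nervous system, showed the opposite arrangement, with acetylation in the gene body and none at a start. It lies on the minus strand at chr7:84246278-84410176. The reference start at 84410119 had H3K4me3 (chr7:84408501-84411000, score 134 in both lists) without H3K27ac, and the starts at 84372531 and 84367911 had no mark. Inside the gene, 3 H3K27ac intervals were shared by both oxygen levels, and each scored lower in normoxia. The broadest, chr7:84325001-84342000 with 17000 bp, scored 96 in hypoxia and 76 in normoxia. The next, chr7:84298501-84305000, scored 71 and 64, and chr7:84292001-84295000 scored 75 and 58. A score lower in normoxia by at least 20 was found at 12.0% of the 11015 shared peaks, by at least 17 at 14.3% and by at least 7 at 26.1%. These shares are over the shared peaks below 1000 in both lists and leave out falls from 1000.

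A further H3K27ac interval of Arnt2, chr7:84354501-84364500, was called in normoxia only. It spanned 10000 bp, of which 163 were coding and the rest intronic, touched no other peak and had the score of 50, the lowest in the list. Of the 218 normoxia-only intervals, 192 scored higher. The interval that differed with oxygen and the shared intervals of the same gene thus pointed in opposite directions. The stretch of it richest in HIF cores is shown for comparison with that of Hif1a.
Arnt2 normoxia-only interval, plus strand, chr7:84363752-84364051: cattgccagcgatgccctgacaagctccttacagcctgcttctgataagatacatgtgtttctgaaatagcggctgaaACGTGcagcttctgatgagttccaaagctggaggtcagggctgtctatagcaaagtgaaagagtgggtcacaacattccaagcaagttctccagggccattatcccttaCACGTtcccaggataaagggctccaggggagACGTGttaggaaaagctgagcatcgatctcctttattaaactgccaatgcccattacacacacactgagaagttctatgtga

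This stretch held 3 of the 8 cores of the interval, which amounted to 0.8 cores per kb over its whole length.

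Egln1 encodes the prolyl hydroxylase that sets HIF levels in most tissues, and occupies chr8:124908587-124949324 on the minus strand. Its start (chr8:124947001-124950500) had both marks, with an H3K27ac score of 1000 at both oxygen levels and an H3K4me3 score of 139. An interval upstream of the gene, chr8:124958001-124962000, lying 8677 bp from the start and without H3K4me3, also scored 1000 in both lists. Neither of these can show a difference in score, since both were at the top value. The promoter of Egln1 is shown as the most GC-rich of the matched genes.
Egln1 promoter, chr8:124949305-124949504: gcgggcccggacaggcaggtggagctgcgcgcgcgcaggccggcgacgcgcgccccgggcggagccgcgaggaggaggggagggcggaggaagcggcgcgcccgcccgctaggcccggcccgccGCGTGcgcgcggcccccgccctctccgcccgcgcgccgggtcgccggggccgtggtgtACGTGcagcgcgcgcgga

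Over its 250 bases the GC content was 86%, beside a median of 52.4% over all promoters, and it held a GCGTG at 126 and an ACGTG at 68 bases before the RefSeq start. Within the first part of the gene, H3K4me3 extended alone over the touching interval chr8:124946001-124947000 (score 131), the single H3K4me3 interval of the 10 windows that was at no start. Deeper in the same gene body, the H3K27ac interval chr8:124918501-124929000, wholly intronic, scored 134 in hypoxia and 141 in normoxia. A score higher in normoxia by at least 7 occurred at 9.08% of the 11015 shared peaks that were below 1000 in both lists. The peak at the shared start region of the neighbours Exoc8 and Sprtn differed the other way, with 134 in hypoxia and 116 in normoxia.

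Egln2 encodes a prolyl hydroxylase of the same family and lies on the minus strand at chr7:27158658-27166802, among the shortest of the 10 genes. Its 2 starts shared the interval chr7:27163001-27168000, which scored 1000 for both marks at both oxygen levels and whose H3K4me3 width of 5000 bp stood at the percentile of 95.2. Egln2 had 2 RefSeq promoters, and the one before the start at 27165728 held 1 core. The one before the start at 27166802 is shown because it held the most HIF cores of the matched genes.
Egln2 promoter, chr7:27166803-27167052: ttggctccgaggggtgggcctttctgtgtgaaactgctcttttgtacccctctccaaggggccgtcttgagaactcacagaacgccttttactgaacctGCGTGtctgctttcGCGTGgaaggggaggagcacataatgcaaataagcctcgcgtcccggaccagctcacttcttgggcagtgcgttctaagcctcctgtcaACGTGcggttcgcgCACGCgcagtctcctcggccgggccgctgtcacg

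It held 3 GCGTG and 1 ACGTG, at 151, 137, 48 and 34 bases before the start, and 2.59% of all promoters held at least 4. The acetylated start of Egln2 and the unmarked start of Hif3a both held cores. The other H3K27ac peaks of the window belonged to neighbours and scored lower in normoxia. The start of Rab4b, a small GTPase gene, had 1000 in hypoxia and 112 in normoxia (chr7:27177501-27179500), a difference whose size cannot be read because 1000 is the top value. The touching interval chr7:27179501-27182500, at the starts of Mia and Rab4b, scored 56 and 52.

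Egln3, the prolyl hydroxylase gene known to be induced by HIF, lies on the minus strand at chr12:54178981-54203860. Its window held only the H3K4me3 peak at the start, chr12:54202001-54204500, with a score of 124 in both lists. No H3K27ac was called at either oxygen level, also not in the hypoxia-cultured MSCs. Its promoter is shown beside that of Egln2 as a start with H3K4me3 alone.
Egln3 promoter, chr12:54203875-54204124: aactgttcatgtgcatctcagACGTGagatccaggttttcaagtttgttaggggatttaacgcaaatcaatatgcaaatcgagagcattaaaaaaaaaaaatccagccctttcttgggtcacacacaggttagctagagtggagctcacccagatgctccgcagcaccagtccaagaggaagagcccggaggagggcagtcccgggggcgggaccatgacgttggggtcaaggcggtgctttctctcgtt

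It held 1 ACGTG at 229 bases before the RefSeq start and a GC content of 50.8%, against 59.2% for the Egln2 promoter shown.

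Hif1an, on the plus strand at chr19:44562850-44576274, encodes the hydroxylase that acts on an asparagine of the alpha subunit. Its start (chr19:44562001-44564500) had H3K4me3 with a score of 133 in both lists and no H3K27ac. The same held for its neighbours, since the starts of Sec31b and of Ndufb8 with the overlapping model Gm20538 also had H3K4me3 at 133 and no H3K27ac. All 3 H3K4me3 intervals of the window were thus without acetylation.

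Vhl had an H3K27ac score at its start that was lower in normoxia, while the intervals over the starts of Arnt, Egln1 and Egln2 were at 1000 in both lists and could show no difference. It lies on the plus strand at chr6:113623959-113631633, and its start (chr6:113623001-113625500) had both marks. H3K27ac there scored 129 in hypoxia and 87 in normoxia. A score lower in normoxia by at least 42 was found at 2.29% of the 11015 shared peaks below 1000 in both lists. That share leaves out falls from 1000, as at Rab4b, so it is not the share over all shared peaks. H3K4me3 of the Vhl interval scored 129 in both lists. The promoter is shown for this difference.
Vhl promoter, chr6:113623744-113623978: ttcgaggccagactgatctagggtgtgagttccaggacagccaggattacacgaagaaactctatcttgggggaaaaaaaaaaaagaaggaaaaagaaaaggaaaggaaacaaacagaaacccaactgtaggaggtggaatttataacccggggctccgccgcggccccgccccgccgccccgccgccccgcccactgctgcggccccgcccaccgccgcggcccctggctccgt

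The letters of neither core were in the 250 bases before the RefSeq start of Vhl. The peak at the neighbouring start of Brk1, a gene of the actin-regulating WAVE complex, scored 126 for H3K27ac in both lists, and the start of Irak2 carried H3K4me3 without H3K27ac.

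**Figure D3:**
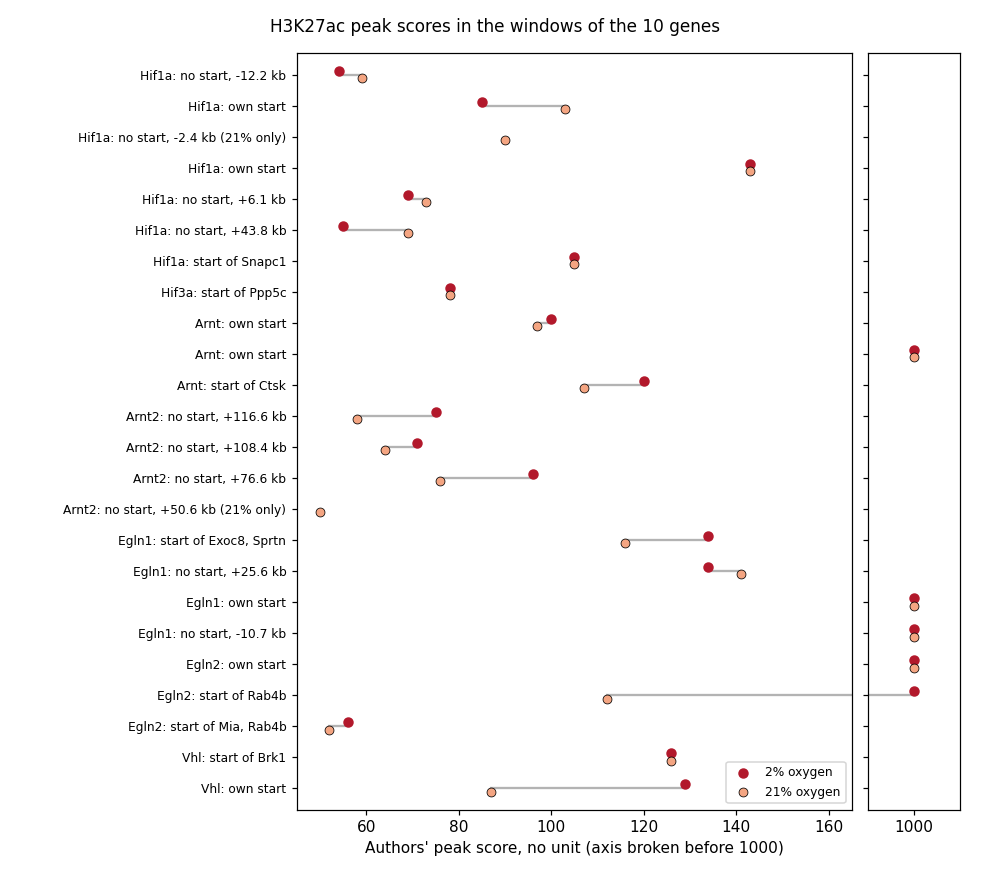
Each line is 1 H3K27ac interval in the windows of the 10 genes, with the authors' score at 2% oxygen (dark red) and at 21% oxygen (light orange) on an axis broken before 1000 and the position given as a start or as the distance of the interval's centre from the reference start. The orange point lies to the right at 4 shared intervals of the Hif1a window. It lies to the left at all 3 shared Arnt2 intervals and at the Vhl start (129 and 87), and 2 intervals have an orange point only.

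The oxygen levels were then compared over all windows. Of the 22 shared H3K27ac intervals, 9 scored lower in normoxia, 5 scored higher and 8 were equal. Of all 14614 shared H3K27ac peaks, 39.9% scored lower in normoxia, 16.6% scored higher and 43.6% were equal. Of the 5 higher intervals, 4 were in the Hif1a window and 1 was in the intron of Egln1. The 4 include the interval at the 3′ end of Hif1a, whose nearest start was that of Snapc1. The 9 lower ones were 3 in Arnt2, 1 at the start of Vhl, 1 next to the start of Arnt, and 4 at the neighbours Ctsk, Exoc8 with Sprtn, and Rab4b with Mia.

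Because the lists differ in their overall scores, with a median of 111 in the hypoxia and 102 in the normoxia H3K27ac list, each score was also ranked within its list. The difference of the percentile, hypoxia minus normoxia, had a median of -1.67 percentage points over the 22 shared intervals (quartiles -5.77 and 4.84), the same as over all shared peaks (quartiles -4.23 and 2.27). Equal scores give a value below 0 by themselves, since the lists differ in their overall scores. An interval at 1000 in both lists gives -1.67 and that of Brk1, at 126 in both, gives -5.98. By gene, the 6 shared intervals of the Hif1a window ran from -16.7 to -3.51, the former at the 3′ end interval whose nearest start was that of Snapc1. Those in Arnt2 ran from 4.85 to 15.5, and the start of Vhl stood at 23.4. The values of -3.51, at the reference start of Hif1a, and -5.12, at the start of Snapc1, belonged to intervals with equal scores. Thus 4 of the 6 intervals of the Hif1a window had a higher rank in normoxia with a higher score. The 3 of Arnt2 had a higher rank in hypoxia with a higher score. With 1 list per oxygen level, none of these differences can be set against replicate error.

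Condition-specific intervals, meaning those of a mark with no base called for that mark at the other oxygen level, were all of 1 kind. Normoxia-only H3K27ac intervals were found at 2 of the 10 genes (5.67 to 51.0%), Hif1a and Arnt2, beside 1.15% of all genes. Hypoxia-only intervals were found at 0 of the 10, which allows a share of up to 27.8%, beside 4.68% of all genes. Over the whole lists, 1.47% of the normoxia peaks and 3.87% of the hypoxia peaks were condition-specific. A longer window can hold more intervals, and that of Arnt2, with 203899 bp, was the longest of the 10, so the count of genes rests in part on gene length, and its share in the result was not tested. The covered length of H3K27ac differed with oxygen only at these genes, from 26.5 kb in hypoxia to 28.5 kb in normoxia at Hif1a and from 26.5 kb to 36.5 kb at Arnt2. No condition-specific H3K4me3 interval lay in any of the windows, and the whole lists held only 6 in hypoxia and 3 in normoxia.

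**Figure D4:**
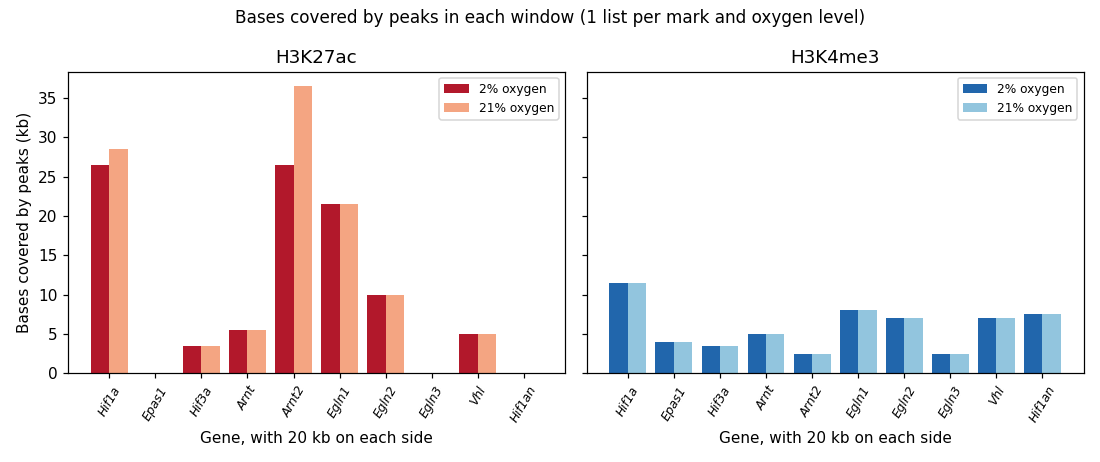
Bars give the length in kb covered by H3K27ac peaks (left) and H3K4me3 peaks (right) in the window of each gene at 2% and 21% oxygen, from 1 list each and so without error bars. H3K27ac differs between the oxygen levels at Hif1a (26.5 and 28.5 kb) and Arnt2 (26.5 and 36.5 kb) and is absent at Epas1, Egln3 and Hif1an, while H3K4me3 is the same at both oxygen levels for each gene.

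The genes that work with the core, and other genes of the bHLH-PAS family of its subunits, were read in the same way. Of these 38 genes, 37 had H3K4me3 and 26 had H3K27ac at a start, beside 58.9% and 36.9% of all protein-coding genes. The 38 include 11 bHLH-PAS genes, of which 3 had H3K27ac. At none did the H3K27ac call at a start differ between oxygen levels. The share of all genes with such a difference was not counted. All 5 partners of Vhl in the ubiquitin ligase (Elob, Eloc, Cul2, Rbx1 and Nedd8) had both marks. Of 10 regulators of the hydroxylases, all had H3K4me3 and 8 had H3K27ac, with Os9 and P4htm lacking it. Of 12 cofactors and inhibitors of HIF, all had H3K4me3 and 10 had H3K27ac, with Cited4 and Usp20 lacking it.

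The 11 other genes of the bHLH-PAS family, to which the alpha and beta subunits belong, mostly had H3K4me3 without H3K27ac. H3K4me3 was at the start of 10, all but Npas4, beside 58.9% of all protein-coding genes. H3K27ac was at the starts of 3, beside 36.9% of all genes. These were the aryl hydrocarbon receptor gene Ahr and the circadian genes Clock and Arntl. Of all genes, 22.4% had H3K4me3 without H3K27ac at a start. One condition-specific interval lay near the 38 genes, the normoxia-only H3K27ac interval chr10:17726501-17728500 with a score of 53. It lay 3268 bp from the start of Cited2, which encodes a protein that competes with HIF for its coactivators. No hypoxia-only interval lay in any of the 38 windows, beside 4.68% of all genes with one in the window. A normoxia-only interval was found at 1 of the 38, beside 1.15% of all genes. Among the 10 core genes and these 38, Hif1a, Arnt2 and Cited2 were those with a normoxia-only interval.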

How the data were processed

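ChIP-seq of mouse MSCs cultured at 2% or 21% oxygen was read from 4 peak lists. According to the study's methods and the submitters' processing notes, the authors mapped reads to mm10 with Bowtie2, removed duplicates with Picard (versions not given in the sources used here) and called peaks with chromstaR, run in its differential mode on hypoxia against normoxia. Peaks that overlapped between lists had identical boundaries, each a multiple of 500 bp, and boundaries are not independent between lists. The deposited score per peak is the authors' value and its definition was not given in the sources used here. Groups followed the sample labels. The input libraries were not used here.

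Peaks were matched to protein-coding genes of GENCODE M21 with Python 3.11.15, NumPy 2.4.6 and SciPy 1.17.1. A start was counted as marked when a peak lay within 1000 bp. The reference start was that of the protein-coding transcript with the best APPRIS tag. A peak was shared when at least 1 bp lay in the other list. Percentiles are the share of values below plus ties at the midpoint. Intervals are 95% Wilson intervals and cover counting error only. Promoter sequences are from RefSeq (GRCm38.p6), and the cores ACGTG and GCGTG were searched on both strands, with overlapping matches counted. The counting was checked on simulated intervals. The 10 genes were named in full, neighbours where a peak of a window lay at their start, and other pathway or bHLH-PAS genes where they lacked a mark or held a condition-specific peak. H3K4me3 at the blood cell markers is not reported here. The genes, pathway lists and marker lists were chosen with earlier results of these data known. The alternatives were start windows of 0 and 2500 bp, the reference start only, flanks of 5000 and 50000 bp, 50% cover, lists without the lowest-scoring 25%, a gap of 1000 bp to the other list for condition-specific peaks, only peaks nearest to a start of the gene, and other percentile bases.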

Additional observations from a re-analysis of the deposited data

How the results depend on the processing

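Of 53 alternatives, 43 kept the value near that reported, 10 moved it and 0 reversed it. Part of the 43 had little or no room to move. Peaks that overlapped between lists had identical boundaries, so requiring a larger cover for a shared peak could change no count. The alternatives for condition-specific H3K4me3 intervals could hardly leave 0, since the whole lists held only 6 in hypoxia and 3 in normoxia. The counts of genes with H3K4me3 (9) and H3K27ac (5) at a start were the same under each alternative. Without the lowest-scoring 25% of each list, hypoxia-only H3K27ac intervals went from 0 to 1, the Arnt2 interval chr7:84292001-84295000, whose scores of 75 and 58 lay on either side of the limits of 73 and 71. The normoxia-only intervals then were 2 at Hif1a, chr12:73904501-73906500 and chr12:73912001-73916000, and that of Arnt2 was left out by its score. With a gap of at least 1000 bp to the other list required, normoxia-only intervals went from 2 to 1, that of Arnt2, because that of Hif1a touches shared peaks. With flanks of 50000 bp there were 3, the added one being chr7:17005001-17007000 near Ccdc8 in the Hif3a window. The H3K27ac cover in hypoxia was 12.9% of window bases with flanks of 5000 bp, 7.41% with 50000 bp, 8.42% without the lowest 25% and 8.03% for peaks nearest to the gene itself. In normoxia it was 14.98%, 8.35%, 8.77% and 9.39%, above hypoxia in each case. Shared intervals had identical boundaries, and the settings of flanks and of nearest peaks kept the normoxia-only intervals of Hif1a and Arnt2. In those settings the direction was thus fixed by these intervals. Without the lowest 25%, which left out that of Arnt2, the covers were 8.42% in hypoxia and 8.77% in normoxia. The median percentile difference stayed between -2.24 and -1.12 percentage points, the latter within chromosomes, an alternative chosen after seeing the data.

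No paired analysis was possible because the libraries of a group were merged into a single list without values per library. Leaving out a replicate was not possible for the same reason. Depth is unknown, so an interval absent from a list is not shown to lack the mark.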

Other observations

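The density of the HIF core letters (ACGTG or GCGTG, both strands) in the 24 H3K27ac intervals of the 10 windows is given as a description. At the starts of the HIF core genes it was 2.8 per kb at Egln2, 2.4 at Vhl, 2.29 at Egln1, 2 at each start of Hif1a, and 1.6 and 0 in the touching intervals at Arnt. The Vhl interval held 6 cores, although the 250 bases before its RefSeq start held none. At the starts of neighbours it was 4 per kb at Snapc1 and at Exoc8 with Sprtn, 3.2 at Brk1, 2.4 at Ctsk, 1.5 at Rab4b, 1.43 at Ppp5c and 1 at Mia with Rab4b. Away from starts, the intervals of the Hif1a window ran from 0.5 to 1.65 per kb, the highest at the 3′ end of the gene. Those of Arnt2 ran from 0 to 1.38, and those of Egln1 stood at 1.33 in the intron and 1.5 upstream. The ranges at and away from starts overlapped.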
